A study of Homo sapiens with 6 samples.

Results

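The genes described here form a set of 39 with a place in glycolysis or in the response of cells to low oxygen, out of 56303 genes in the count table. A gene belonged to the set by its symbol, and the rule used no expression value. The symbols, however, were chosen with earlier results of these data known. The set held 18 glycolytic enzymes and regulators, from hexokinase to lactate dehydrogenase, and 21 other genes, which cover glucose and lactate transport, the hypoxia-inducible factors (HIFs) and genes known as their targets. All 39 had enough counts to be tested. The libraries came from SW480, a line established from a human colorectal adenocarcinoma, grown in medium with serum. Cells carried a lentiviral non-silencing short hairpin (shCtrl) or a hairpin against MORC2 (shMORC2), a nuclear ATPase of the microrchidia family, and stable clonal lines of both were selected with puromycin. Polyadenylated RNA was sequenced from 3 libraries a group with a stranded kit that carries molecular identifiers. The labels list the genotype as wild type, and no low-oxygen treatment is named for either group. The knockdown rests on 1 hairpin, and clones and hairpin cannot be told apart. The study's methods speak of replicate experiments for each group, while the labels do not say whether libraries came from separate cultures, and p-values measure the spread between libraries, which may be technical.

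In glycolysis, glucose enters the cell through SLC2A transporters, is split into triose phosphates and is oxidised to pyruvate, which lactate dehydrogenase turns into lactate for export through SLC16A carriers. HIFs pair an oxygen-regulated alpha subunit (HIF1A or EPAS1) with ARNT. When oxygen is present, EGLN enzymes hydroxylate the alpha subunit and VHL marks it for degradation. When oxygen is scarce, the stabilised factor binds the core motif ACGTG or GCGTG near many of these genes. Colorectal tumours are well known for high glucose uptake.

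Total counts ran from 42092664 to 43434425 a library, mitochondrial genes took 7.04% to 8.90% of them, and replicates of a group varied beyond sampling noise in every pair (chi-square per degree of freedom, 6.83 to 23.9). Levels below are CPM, counts divided by a library size that carries the TMM factor. MORC2 (chr22:30925130-30968298, minus strand, GRCh38) stood at 46.1, 46.4 and 48.8 CPM in shCtrl replicates 1 to 3 and at 35.03, 29.3 and 27.2 CPM in shMORC2. The knockdown was partial, with 64.7% of the control level left (log2 fold change -0.63, SE 0.095, edgeR adjusted p 0.000216). MORC2-AS1 shares 1616 exonic bases with MORC2 on the other strand. The epithelial markers KRT8, EPCAM and VIL1 were abundant, at 15380, 478 and 676 CPM in shCtrl, while CD68, PECAM1, VWF and ALB were the markers of other cell types with tested counts alongside COL1A1 and PDGFRB. Of the 6, CD68 (34.1 and 82.4 CPM in shCtrl and shMORC2) and VWF (2.21 and 3.21 CPM, called in 7 of 12 alternatives) rose and ALB (2.34 and 0.493 CPM) fell, and PTPRC, CD3E and COL1A2 were too low to test. Their part in the results was not tested.

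Knockdown of MORC2 was accompanied by changes in both directions among the 39 genes. At an adjusted p under 0.05, 10 were higher and 11 were lower in shMORC2, or 53.8% of the set, where 39.5% of the 21005 tested genes were called (19.9% higher and 19.6% lower). With the replicate number as a block, 12 glycolytic and 15 other genes were called, against 49.0% of all tested genes. The labels do not say that equal numbers pair libraries, and this block, here and below, was taken from the values alone. The 3 shMORC2 values lay apart from the 3 shCtrl values for 23 of the 39, against 50.2% of all tested genes. The median log2 fold change was 0.04 over the set and -0.01 over all genes. Glycolytic genes were called in 9 of 18 cases (5 higher, 4 lower, median 0.07) and the other genes in 12 of 21 (5 higher, 7 lower, median -0.13). Changes of at least 0.5 on the log2 scale were found for 2 glycolytic genes, both higher, and for 9 of the other genes, 3 higher and 6 lower. Over all tested genes, 12.2% were called higher and 10.2% lower by that much. In bulk RNA, fewer cells expressing a gene and less RNA per cell cannot be told apart.

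**Figure D1:**
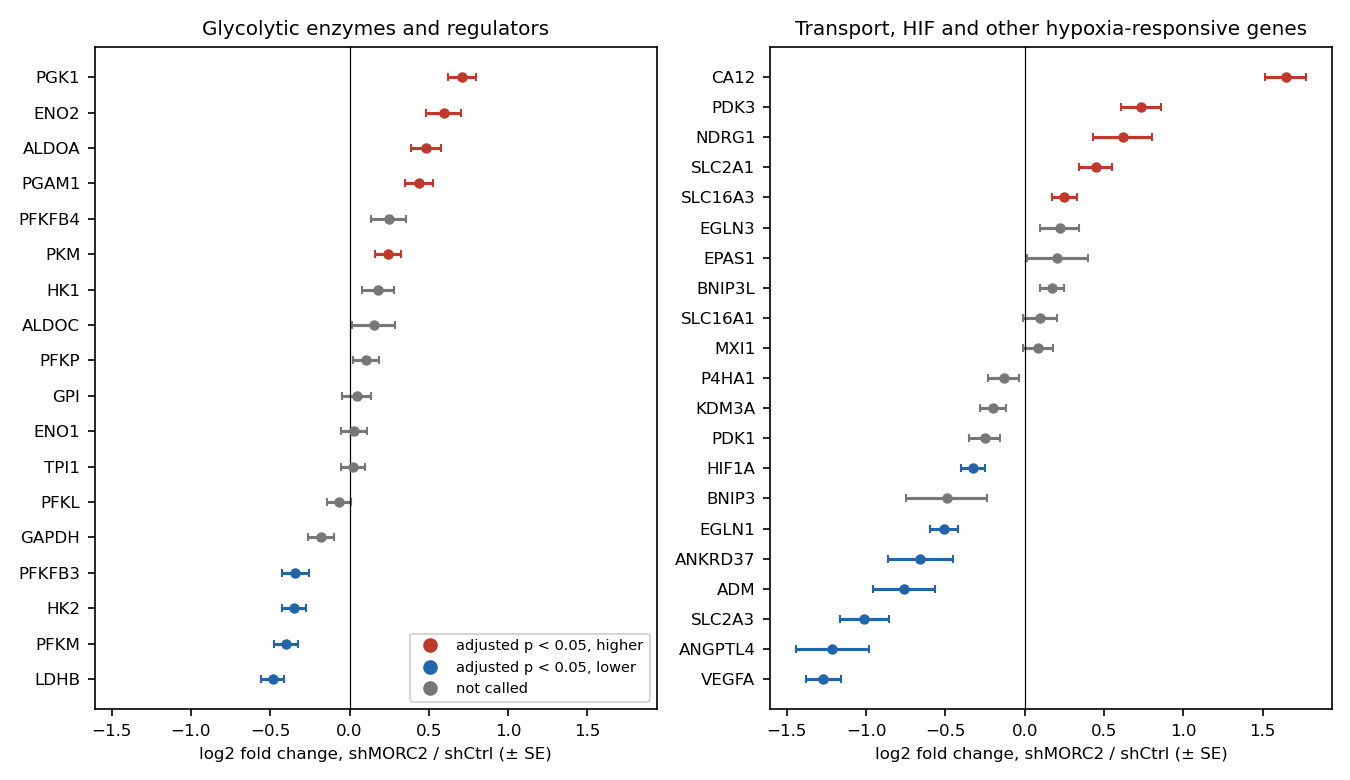
Log2 fold change of shMORC2 over shCtrl (horizontal axis, edgeR estimate with bars of ± SE) for the 18 glycolytic genes (left) and the 21 transport, HIF and other genes (right), coloured by the call at an adjusted p under 0.05. Glycolytic genes lie between -0.48 and 0.71, and the other genes between -1.27 and 1.65, with CA12 highest and VEGFA lowest.

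The 5 glycolytic genes that rose act from aldolase to pyruvate kinase, and the 4 that fell act at hexokinase, at phosphofructokinase and its regulator, and at lactate dehydrogenase. PGK1, the phosphoglycerate kinase that makes the first ATP of the pathway (chrX:78065188-78129296, plus strand), changed most. It stood at 416, 382 and 400.5 CPM in shCtrl and 569, 708 and 685 CPM in shMORC2. Every shMORC2 library lay above every shCtrl library, by 1.64-fold in the mean (log2 fold change 0.71, SE 0.089, edgeR adjusted p 4.97e-05). ENO2, the neuronal-type enolase (chr12:6913745-6923698, plus strand), stood at 46.9, 46.7 and 44.3 CPM in shCtrl and 56.0, 79.9 and 72.5 CPM in shMORC2. Here too the groups did not overlap, although replicate 1 of shMORC2 stayed nearer to the control libraries (log2 fold change 0.60, SE 0.11, edgeR adjusted p 0.000892). The 250 bases before the RefSeq start of both genes (GRCh38.p14, plus strand, chrX:78103998-78104247 for PGK1 and chr12:6914330-6914579 for ENO2) are shown because each holds the HIF core. Capitals mark ACGTG, or CACGT where the motif lies on the other strand.
PGK1: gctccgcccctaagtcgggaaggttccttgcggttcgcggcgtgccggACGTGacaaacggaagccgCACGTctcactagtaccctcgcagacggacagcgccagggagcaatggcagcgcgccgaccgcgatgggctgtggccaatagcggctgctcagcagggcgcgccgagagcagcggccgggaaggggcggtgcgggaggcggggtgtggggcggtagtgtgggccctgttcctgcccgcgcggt
ENO2: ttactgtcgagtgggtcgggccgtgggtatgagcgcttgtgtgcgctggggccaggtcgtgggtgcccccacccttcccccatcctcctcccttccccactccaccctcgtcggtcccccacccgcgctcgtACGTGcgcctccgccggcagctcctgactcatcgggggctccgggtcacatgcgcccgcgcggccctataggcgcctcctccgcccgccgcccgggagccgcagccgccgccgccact

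In PGK1 the motifs begin 202 and 183 bases before the start, and in ENO2 the only one in this stretch begins 118 bases before it. These letters are a description of the window and not evidence of binding in these cells.

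At the first step, the inducible hexokinase HK2 fell from 84.7 ± 2.83 to 66.5 ± 3.76 CPM (SD, n = 3; log2 fold change -0.35, edgeR adjusted p 0.00259), and the ubiquitous HK1 was 288 ± 22.5 and 326 ± 43.3 CPM, with an adjusted p of 0.168 that became 0.0107 when the replicate number was a block. GPI, which isomerises glucose-6-phosphate, had a log2 fold change of 0.04 (adjusted p 0.727). Of the phosphofructokinases, which catalyse the committed step, the muscle form PFKM fell from 168 ± 3.72 to 127 ± 8.84 CPM (log2 fold change -0.40, edgeR adjusted p 0.0011). The liver form PFKL (-0.07) and the platelet form PFKP (0.10) did not pass the test. PFKFB3 and PFKFB4 set the level of fructose-2,6-bisphosphate, the activator of phosphofructokinase. PFKFB3 fell by 0.34 on the log2 scale (edgeR adjusted p 0.00713), and PFKFB4 had a log2 fold change of 0.25 with an adjusted p of 0.0895, or 0.00688 with the replicate block.

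Among the later enzymes, ALDOA, the main aldolase, rose from 354 ± 16.8 to 494 ± 65.2 CPM (SD, n = 3; log2 fold change 0.48, edgeR adjusted p 0.00136), while its brain form ALDOC had a log2 fold change of 0.15 (adjusted p 0.399). PGAM1, the phosphoglycerate mutase, rose by 0.44 (edgeR adjusted p 0.00159). Its X-linked retrocopy PGAM4, nearly identical in sequence, was counted apart (2.82 CPM in shCtrl, 7.82 CPM in shMORC2), so reads may be split between them. PKM, the last enzyme before pyruvate, rose by 0.24 (edgeR adjusted p 0.0331), a call that was lost in 4 of the 6 fits with a library left out: without shCtrl replicate 1 or 2 (adjusted p 0.084 and 0.0802) and without shMORC2 replicate 2 or 3 (0.0991 and 0.137). TPI1, ENO1 and GAPDH, all abundant, were not called. The values for TPI1, the triose phosphate isomerase, and ENO1, the ubiquitous enolase, were 0.02 and 0.03 on the log2 scale. GAPDH was the most abundant gene of the set and lay lower in all 3 shMORC2 libraries (2953, 3073 and 3124 CPM against 2465, 2761 and 2848 CPM). Its log2 fold change of -0.18 had an adjusted p of 0.0968, which passed with the replicate block (0.00529) and with library sizes not scaled by TMM (0.0435).

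LDHB, the heart-type lactate dehydrogenase subunit that favours the conversion of lactate to pyruvate, fell most among the enzymes. It stood at 963, 951 and 993 CPM in shCtrl and 683, 712 and 683 CPM in shMORC2, with no overlap and little spread in either group (log2 fold change -0.48, SE 0.071, edgeR adjusted p 0.000166). LDHA, the muscle-type subunit, was not in the set but belongs to a list of other glycolysis genes. It stood at 623, 503 and 549.7 CPM in shCtrl and 769.9, 768 and 762 CPM in shMORC2, again with no overlap but in the other direction (log2 fold change 0.46, SE 0.085, edgeR adjusted p 0.000919).

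Because isozymes of a step differed in their log2 fold changes, their shares of summed RPKM (counts per length of exon and library total) were compared, first among the genes of the set and then, as an alternative added after the values were seen, with other genes of the family. With 3 libraries a group, an exact permutation test cannot reach the 0.05 threshold, so the shares are given as a description. HK1 made up 77.2% ± 1.46 of the RPKM of HK1 and HK2 in shCtrl and 83.0% ± 1.44 in shMORC2 (SD, n = 3). With HKDC1 and HK3 added, the share of HK1 was 61.3% ± 2.23 and 72.5% ± 2.07, and HKDC1 took 20.6% ± 1.40 and 12.6% ± 1.01. PFKM went from 29.9% ± 0.555 to 23.6% ± 0.312 of the RPKM of the 3 phosphofructokinases and PFKP from 53.0% ± 1.13 to 59.3% ± 0.817, while PFKL was at 17.1% and 17.0% with overlapping libraries. PFKFB3 went from 70.6% ± 0.844 to 61.6% ± 1.35 of its sum with PFKFB4, and from 60.4% ± 0.753 to 52.8% ± 0.836 with PFKFB1 and PFKFB2 added. ENO2 took 2.48% ± 0.133 and 3.61% ± 0.393 of its sum with ENO1. With ENO3, which took 11.6% ± 0.551 and 10.8% ± 0.275, the share of ENO2 was 2.19% ± 0.126 and 3.22% ± 0.355, and that of ENO1 overlapped between the groups. LDHA, paired with LDHB here after its values were seen, took 21.7% ± 1.82 of the pair in shCtrl and 34.7% ± 0.545 in shMORC2, and the summed RPKM of both genes was 416 ± 16.5 and 354 ± 6.55. The libraries of the groups lay apart, in either sum, for HK1, PFKFB3 and ENO2.

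**Figure D2:**
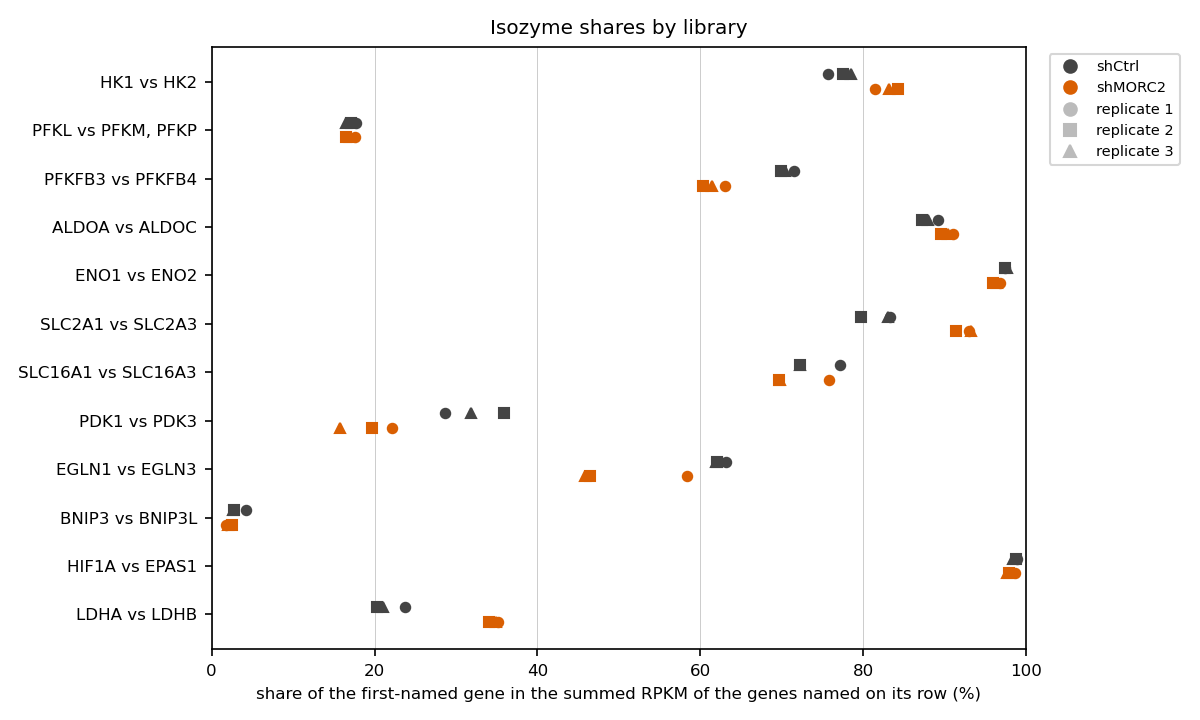
Share of the first-named gene in the summed RPKM of the genes named on its row (horizontal axis, percent), 1 point a library, for 12 families. The shCtrl and shMORC2 libraries lie apart for HK1, PFKFB3, SLC2A1, PDK1, EGLN1 and LDHA among others, and overlap for PFKL, SLC16A1 and HIF1A.

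Summed over the 18 glycolytic genes, RPKM was 2656 ± 14.8 in shCtrl and 2568 ± 132 in shMORC2 (SD, n = 3), a difference smaller than the spread of the shMORC2 libraries. GAPDH alone gave 1025 RPKM in shCtrl, followed by ENO1 at 423, LDHB at 325, TPI1 at 315 and PKM at 185 RPKM. LDHB and TPI1 differed by less than the spread of TPI1 (SD 11.6). The 3 shMORC2 libraries summed to 2420.3, 2607 and 2676 RPKM. Replicate 1 of shMORC2 was the lowest of its group for 18 of 18 glycolytic genes and 15 of 21 others, against 38.9% of all tested genes. Its median deviation from the group mean was -0.14 on the log2 scale for the glycolytic genes and -0.0012 for all genes. Without TMM it was lowest for 16 of the 18, against 31.9% of all genes. This library also kept the most MORC2, at 35.03 CPM, and whether that bears on its glycolytic levels was not tested. Among the shCtrl libraries, replicate 1 was likewise the lowest for 10 of 18 glycolytic genes and 10 of 21 others, against 36.9% of all tested genes. Without TMM, shCtrl replicate 1 was lowest for 7 of the 18, against 29.3% of all genes. When shMORC2 replicate 1 was left out, 12 glycolytic genes were called in place of 9, with HK1, PFKFB4 and ALDOC added, all higher.

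**Figure D3:**
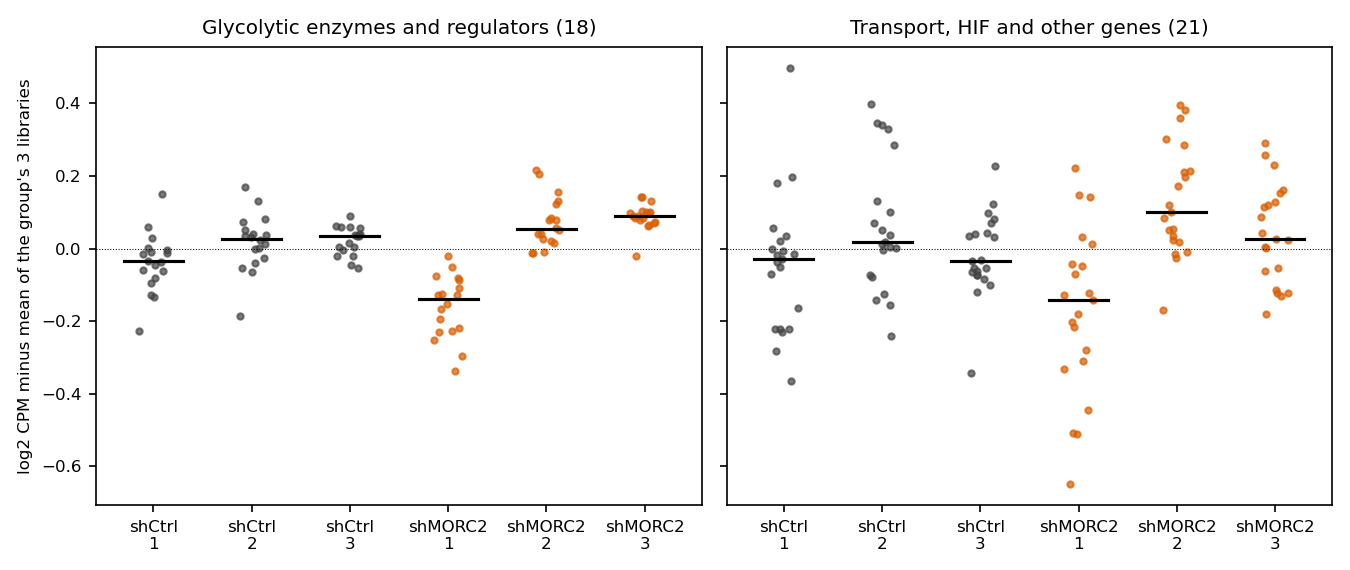
Log2 CPM of each gene minus the mean of its group's 3 libraries (vertical axis), 1 point a gene, for the 18 glycolytic genes (left) and the 21 others (right); black bars are medians. In shMORC2 replicate 1 the median is -0.14 in both sets, and every glycolytic gene lies below 0.

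Among the other 21 genes, glucose transporters went in opposite directions. SLC2A3, the high-affinity transporter GLUT3 (chr12:7919230-7936275, minus strand), stood at 255, 395 and 298 CPM in shCtrl and 125, 188 and 157 CPM in shMORC2. The groups did not overlap, and 49.6% of the control level remained (log2 fold change -1.01, SE 0.16, edgeR adjusted p 0.000235). SLC2A14, a near-identical neighbour that can share its reads, was also lower, at 4.47 and 2.82 CPM (edgeR adjusted p 0.00346), and copies named after SLC2A3 held 2.74% of its counts. SLC2A1, the basal transporter GLUT1 and the most abundant of the 21 genes, rose from 1144 ± 116 to 1562 ± 204 CPM (SD, n = 3; log2 fold change 0.45, edgeR adjusted p 0.00419). Its share of the RPKM of both transporters was 82.0% ± 1.96 in shCtrl and 92.6% ± 0.991 in shMORC2. The lactate exporter SLC16A3 rose by 0.25 (edgeR adjusted p 0.0193), while the import and export carrier SLC16A1 had a log2 fold change of 0.09 (adjusted p 0.509). The call of SLC16A3 was lost in 4 of the 6 fits with a library left out: without shCtrl replicate 1 or 2 (adjusted p 0.0644 and 0.0548) and without shMORC2 replicate 2 or 3 (0.0528 and 0.0888). It shares 482 exonic bases with CSNK1D on the other strand, whose counts were 257% of its own.

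Pyruvate dehydrogenase kinases inhibit the pyruvate dehydrogenase complex, which oxidises pyruvate inside mitochondria. PDK3 (chrX:24465221-24539837, plus strand) stood at 9.03, 6.67 and 8.12 CPM in shCtrl and 12.1, 12.9 and 14.7 CPM in shMORC2. All 3 knockdown libraries were higher (log2 fold change 0.73, SE 0.13, edgeR adjusted p 0.000575). PDK1, the kinase best known as a HIF target, was lower in all 3 but not called, with a log2 fold change of -0.25 (adjusted p 0.0556, or 0.0139 with the replicate block). PDK1 shares 445 exonic bases with an opposite-strand gene, AC093818.1, whose counts were 145% of its own. PDK3 took 67.9% ± 3.61 of the RPKM of the pair in shCtrl and 80.8% ± 3.25 in shMORC2, and 36.4% ± 5.25 and 48.5% ± 2.43 with PDK2 and PDK4 added, without overlap in either sum.

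Of the oxygen-sensing genes, HIF1A fell from 195 ± 4.85 to 155 ± 10.8 CPM (SD, n = 3; log2 fold change -0.33, edgeR adjusted p 0.00397). The other alpha subunit, EPAS1, was scarce at 3.71 and 4.28 CPM (adjusted p 0.424) and made up 1.33% and 1.92% of the RPKM of both. EGLN1, the main HIF prolyl hydroxylase in normal oxygen (chr1:231363751-231425044, minus strand), stood at 32.4, 32.8 and 29.9 CPM in shCtrl and 24.5, 22.0 and 20.3 CPM in shMORC2. The groups did not overlap (log2 fold change -0.51, SE 0.091, edgeR adjusted p 0.000689). EGLN3, the hydroxylase induced by HIF, had a log2 fold change of 0.22 (adjusted p 0.173), and the share of EGLN1 in the RPKM of the pair went from 62.4% ± 0.687 to 50.2% ± 7.05. With EGLN2 added, it went from 35.2% ± 1.07 to 25.6% ± 3.19. ANKRD37, an ankyrin repeat gene known as a HIF target (chr4:185396021-185400628, plus strand), stood at 14.0, 23.7 and 17.6 CPM in shCtrl and 7.96, 14.9 and 12.2 CPM in shMORC2. The highest knockdown library lay above the lowest control library (log2 fold change -0.66, SE 0.21, edgeR adjusted p 0.0217). The call was lost under DESeq2 (adjusted p 0.122), in limma on log2(RPKM + 1) (0.0588), and without shCtrl replicate 2 (log2 fold change -0.44, adjusted p 0.132) or shMORC2 replicate 3 (0.0615), and UFSP2, which shares 909 exonic bases on the other strand, held 116% of its counts. The 250 bases before the start of EGLN1 (chr1:231422288-231422537, minus strand) and ANKRD37 (chr4:185396591-185396840, plus strand), again RefSeq sequence of GRCh38.p14 with ACGTG or CACGT in capitals, are shown beside those of PGK1 and ENO2 because these genes hold the same core and fell.
EGLN1: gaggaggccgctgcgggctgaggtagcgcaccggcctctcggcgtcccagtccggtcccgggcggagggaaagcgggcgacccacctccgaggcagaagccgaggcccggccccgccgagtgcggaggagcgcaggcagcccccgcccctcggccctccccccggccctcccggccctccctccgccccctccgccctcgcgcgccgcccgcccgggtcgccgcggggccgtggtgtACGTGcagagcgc
ANKRD37: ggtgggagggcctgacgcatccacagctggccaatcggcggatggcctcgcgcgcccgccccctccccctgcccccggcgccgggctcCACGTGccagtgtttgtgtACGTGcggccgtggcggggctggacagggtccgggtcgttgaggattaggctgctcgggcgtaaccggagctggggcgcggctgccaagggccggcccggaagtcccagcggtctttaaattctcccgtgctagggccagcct

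In EGLN1 the motif begins 13 bases before the start. In ANKRD37 it begins 162, 161 and 143 bases before, of which the first pair overlap as the palindrome CACGTG. The core thus stands before genes of either direction.

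The secreted factors of the set, VEGFA, ANGPTL4 and ADM, all fell. VEGFA, the main growth factor for blood vessels (chr6:43770184-43786487, plus strand), stood at 129, 183 and 144 CPM in shCtrl and 61.1, 63.7 and 63.9 CPM in shMORC2. The knockdown libraries lay close to each other and far below the lowest control library, with 41.5% of the control level left (log2 fold change -1.27, SE 0.11, edgeR adjusted p 2.49e-06). RP1-261G23.7 shares 188 exonic bases with VEGFA on the other strand and held 20.2% of its counts. ANGPTL4, an inhibitor of lipoprotein lipase (chr19:8363289-8374373, plus strand), stood at 3.13, 4.61 and 3.36 CPM in shCtrl and 1.08, 2.02 and 1.69 CPM in shMORC2, without overlap (log2 fold change -1.21, SE 0.23, edgeR adjusted p 0.00116). ADM, the vasodilator peptide adrenomedullin (chr11:10304680-10307397, plus strand), stood at 3.51, 5.18 and 3.84 CPM in shCtrl and 2.01, 2.47 and 2.91 CPM in shMORC2. Its groups also lay apart (log2 fold change -0.76, SE 0.19, edgeR adjusted p 0.00708). In VEGFA, ANGPTL4, ADM, SLC2A3 and ANKRD37, shCtrl replicate 2 was the highest library, and all but ANKRD37 kept their call without it. That library was the highest of its group for 10 of the 21 genes, against 7097 of all 21005 tested genes.

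CA12, a membrane carbonic anhydrase that helps to regulate pH around tumour cells (chr15:63321378-63382161, minus strand), rose most of the 39 genes. It stood at 3.17, 2.84 and 3.40 CPM in shCtrl and 9.02, 10.7 and 9.82 CPM in shMORC2. The lowest knockdown library was far above the highest control library, a 3.13-fold difference in the mean (log2 fold change 1.65, SE 0.13, edgeR adjusted p 1.39e-06). CA9, its relative and a standard hypoxia marker outside the set, was 51.8 ± 2.81 and 45.8 ± 3.22 CPM, with an adjusted p of 0.101, or 0.0241 with the replicate block. NDRG1, a stress-response gene (chr8:133237171-133302022, minus strand), stood at 75.7, 72.4 and 80.5 CPM in shCtrl and 71.2, 143 and 137 CPM in shMORC2. Replicate 1 of shMORC2 lay just below the lowest control library and replicates 2 and 3 above the highest, so the groups overlapped (log2 fold change 0.62, SE 0.19, edgeR adjusted p 0.0179). The call of NDRG1 was lost under DESeq2 (adjusted p 0.122), in limma on log2(RPKM + 1) (0.0952), and when shCtrl replicate 2 (0.0708) or either of shMORC2 replicates 2 (0.108) and 3 (0.1002) was left out.

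**Figure D4:**
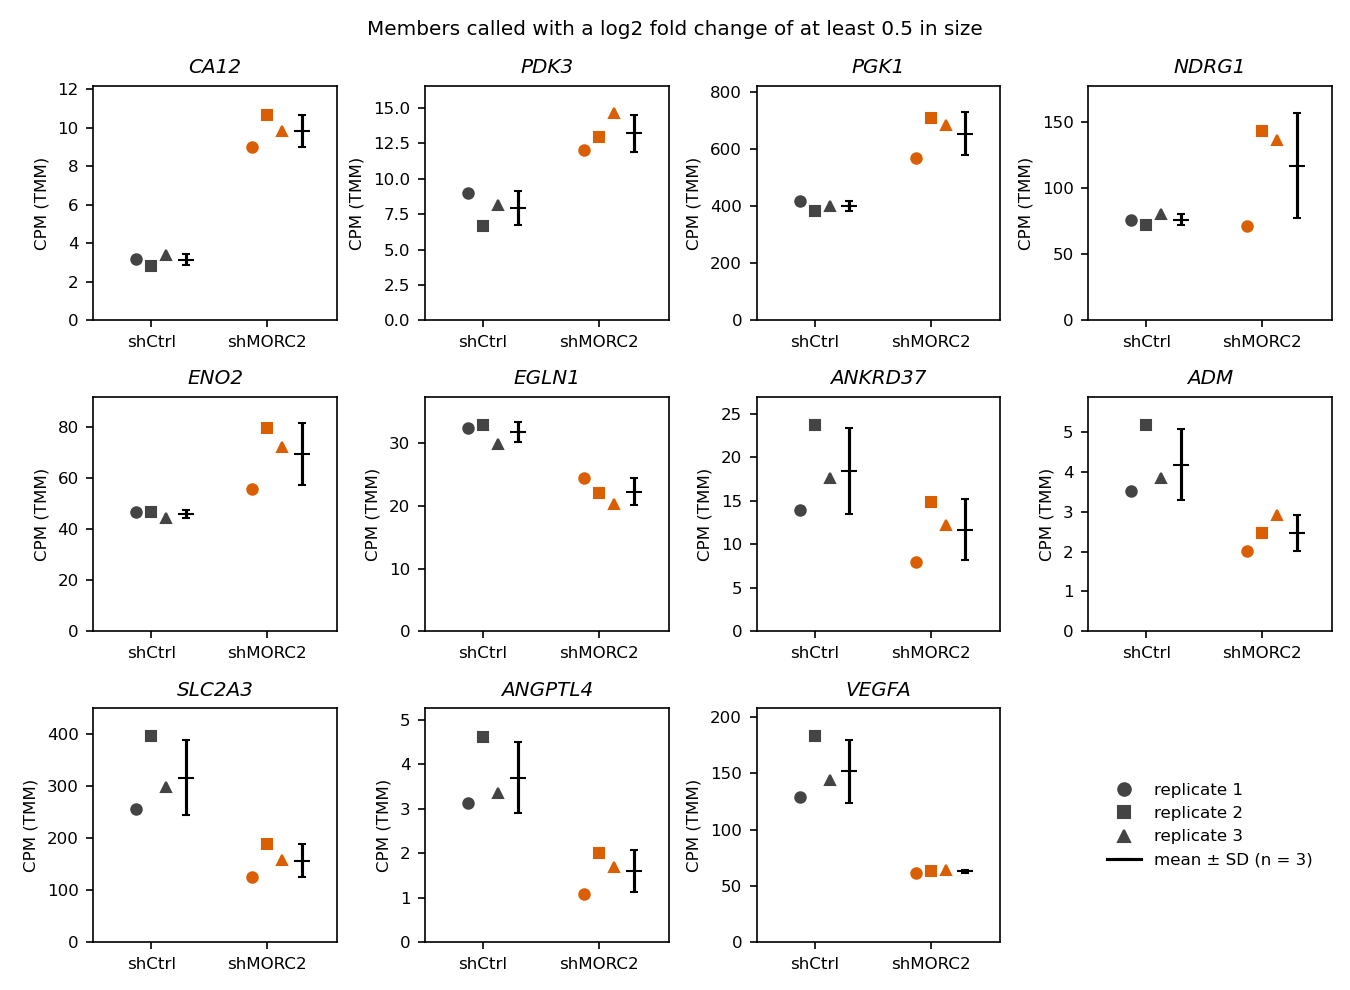
TMM-scaled CPM (vertical axes, from 0) of the 11 genes called with a log2 fold change of at least 0.5 in size, 1 point a library, with mean ± SD (n = 3). In shMORC2, 5 genes are higher and 6 lower, and the groups overlap for NDRG1 and ANKRD37 only among these 11.

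The last 5 genes were not called. BNIP3L, a mitophagy receptor, was higher in all 3 shMORC2 libraries (44.6 ± 2.06 and 50.2 ± 1.95 CPM; adjusted p 0.092, or 0.0302 with the replicate block). Its relative BNIP3 was nearly silent in this line, at 1.85 ± 0.599 and 1.32 ± 0.253 CPM, and copies named after it held 72.2% as many counts, so its value is uncertain. KDM3A, a histone H3 lysine demethylase, was lower in all 3 (71.7 ± 2.28 and 62.5 ± 5.32 CPM; adjusted p 0.0652), and passed with the replicate block (0.00817) and without TMM (0.0411). P4HA1, a collagen prolyl hydroxylase, and MXI1, an antagonist of MYC, had log2 fold changes of -0.13 and 0.08 (adjusted p 0.306 and 0.527). Summed over the 21 genes, RPKM was 445 ± 35.0 in shCtrl and 491 ± 40.4 in shMORC2, of which SLC2A1 gave 233 and 315 RPKM.

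Genes of neighbouring pathways, from lists chosen with earlier results known, also went in both directions, and their counts stand beside 39.5% of all tested genes called. Of 11 tested other glycolysis genes, 3 were called: BPGM (0.51), which makes 2,3-bisphosphoglycerate, and LDHA rose, and the hexokinase HKDC1 fell (-0.78, edgeR adjusted p 5.94e-06). Gluconeogenesis had 4 of 6 called, with PCK1 (1.14), FBP1 (0.67) and G6PC3 (0.46) higher and the mitochondrial PCK2 lower (-0.51). The libraries overlapped for PCK1, whose call held in 7 of 12 alternatives (edgeR or other adjusted p up to 0.269), and FBP1 was called in 11 of 13. In the pentose phosphate pathway 4 of 8 tested genes fell, among them PGLS (-0.64), TKT (-0.50) and RPE (-0.44). For the entry of pyruvate into mitochondria and its oxidation there by pyruvate dehydrogenase, with the regulators of that complex, 7 of 12 were called. PDK2 (0.37, called in 10 of 13 alternatives) and PDHB (0.36) rose, and 5 fell, led by the phosphatase PDP2 (-1.05, edgeR adjusted p 1.5e-06), the carrier subunit MPC2 (-0.64) and PDHA1 (-0.34). The kinase PDK3 thus rose where PDP2, an enzyme that reverses its reaction, fell from 52.8 ± 3.8 to 25.5 ± 1.33 CPM (SD, n = 3).

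In the HIF machinery 5 of 12 tested genes were called. ARNT2 (0.72), TCEB1 (0.69) and TCEB2 (0.47), the latter both elongin subunits of the VHL complex, were among 4 that rose, and RBX1 (-0.39) fell, while ARNT (-0.10) and VHL (-0.17) were not called. VHL was lower in all 3 shMORC2 libraries (76.2 ± 0.933 and 67.7 ± 5.24 CPM) and passed with the replicate block (adjusted p 0.0228). Of 32 tested other hypoxia-responsive genes, 12 rose and 11 fell, and 39.5% of all tested genes were called. DDIT4, an inhibitor of mTORC1, stood at 131, 383 and 244 CPM in shCtrl and 41.7, 60.7 and 46.6 CPM in shMORC2 (log2 fold change -2.35, SE 0.28, edgeR adjusted p 3.16e-05). The related transcription factors BHLHE40 and BHLHE41 went apart, the first lower (-0.88) and the second higher (2.01) from a low level of 0.556 ± 0.115 CPM. The libraries of BHLHE40 overlapped, and its call held in 12 of 13 alternatives. TMEM45A (1.72), also from a low level of 0.442 ± 0.176 CPM in shCtrl, and the matrix cross-linker LOXL2 (1.33) rose. Among 5 glucose-sensing genes, TXNIP, which restrains glucose uptake, rose from 69.6, 21.5 and 66.0 CPM to 111, 166 and 144 CPM (log2 fold change 1.42, edgeR adjusted p 0.00241), and the glucose-responsive factors MLXIPL (-0.48) and MLXIP (-0.25) fell. ARRDC4, a relative of TXNIP, had a log2 fold change of 0.92 and an adjusted p of 0.0535, or 6.22e-05 with the replicate block. Of 9 epithelial markers, KRT20 (0.75) and CDX2 (0.47) rose and CEACAM5 (-1.08) fell. The libraries of CDX2 overlapped, and its call held in 9 of 13 alternatives (adjusted p up to 0.0968).

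The HIF core ACGTG, on either strand, was searched in 300 bases around each RefSeq start (250 before and 50 after; GRCh38.p14), for which 34 of the 39 genes had an entry. SLC16A1, SLC2A3, BNIP3L, NDRG1 and VEGFA were not matched. The motif was in 13 of 34 windows (38.2%), against 26.2% of 11440 windows of tested genes and 21.6% of 27305 windows in all. It was in 4 of 9 genes that rose (ALDOA, PGK1, ENO2 and PDK3), 4 of 9 that fell (HK2, ANGPTL4, EGLN1 and ANKRD37) and 5 of 16 not called. The other form of the core, GCGTG, was in 17 of 34 windows, against 49.4% of those of tested genes, and the palindrome CACGTG, which overlaps ACGTG, in 4 (11.8% against 9.93%). CA12, the gene that rose most, had no ACGTG but 2 matches to GCGTG in its window.

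Splicing events from the deposited comparison covered 5 of the 39 genes (12.8%), with 8 events, against 5.62% of all tested genes with an event listed. The groups of that comparison carry no names, and no direction of the knockdown was assigned. In VEGFA a skipped exon of 132 bases (chr6:43781956-43782087, GRCh38; exon 7 of 8, which encodes part of the heparin-binding region) had inclusion levels of 0.222 to 0.247 in 1 group and 0.310 to 0.378 in the other, on 181 to 394 reads a library. In TPI1, exons 2 and 3 of 7 (chr12:6868864-6868987 and chr12:6869099-6869183) were listed as mutually exclusive, with levels of 0.325 to 0.355 and 0.482 to 0.518 on 5739 to 6238 reads. However, 7 of 8 annotated coding transcripts hold both exons. The 2 events of HK1 and 1 of the events of PFKM were also of mutually exclusive exons that annotated transcripts hold together. The remaining event of PFKM rested on 3 to 6 reads a library, and those of PFKFB4 on 19 to 33 and 4 to 10 reads.

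Strand matters for 19 of the 39 genes, which share exonic bases with a gene on the opposite strand, and 4 (GPI, PFKP, PFKFB4 and HIF1A) share them on the same strand. The kit marks strand, and whether the counting used it was not given in the sources used here. For GAPDH the opposite-strand gene RP5-940J5.9 held 25.5% as many counts, and for PFKM it was SENP1 with 17.8%. Copies named after 15 of the genes were counted apart and held under 1% of the parent's counts for 11 of them, with TPI1 (1.11%), EGLN1 (1.87%), SLC2A3 and BNIP3 above that.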

How the data were processed

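RNA-seq libraries of SW480 cells, 3 shCtrl and 3 shMORC2, were grouped by their titles. Raw counts of reads per gene were deposited by the authors, with RPKM values computed from them. The submitters' processing notes name Trimmomatic 0.36, STAR 2.5.3a, featureCounts of Subread 1.5.1, edgeR 3.12.1 and GRCh38; annotation release, strand setting and treatment of molecular identifiers are not given in the sources used here. The authors also deposited rMATS output, with inclusion levels given as fractions and junction read counts. Its p-values, adjusted p-values and differences were not used, since they are the authors' own comparisons, and its groups are unnamed. The tables held 0 columns of samples outside the series.

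Counts were tested in R 4.3.3 with edgeR 4.0.16 (filterByExpr, TMM, quasi-likelihood F test, group as the only term, Benjamini-Hochberg adjustment over 21005 genes, adjusted p under 0.05). SE was the log2 fold change divided by the square root of F. The scripts were tested on simulated data. Alternatives were DESeq2 1.42.0 (no adjusted p for 12779 genes), library sizes without TMM or with DESeq2 size factors, 2 other low-count filters, the replicate block, limma 3.58.1 on log2(RPKM + 1) where mean RPKM reached 1, and each library left out. Deviations from the group means were correlated between libraries of equal replicate number ( 0.386, 0.193 and 0.181 for replicates 1, 2 and 3), so the numbers were taken to pair them, on the values alone. Overlaps were read from the deposited exon coordinates. Library totals ran from 42092664 to 43434425 counts, so that counting error is largest for genes of a few CPM.

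Members and lists were chosen with earlier results of these data known. Values per library were given for members called with a log2 fold change of at least 0.5, and each list was represented by its called genes with the 3 largest and 3 smallest log2 fold changes, of which some are not reported here.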

Additional observations from a re-analysis of the deposited data

How the results depend on the processing

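Of 21 calls, 17 held in each alternative that gave a value, and the exceptions were PKM, SLC16A3, NDRG1 and ANKRD37. With the replicate block, 12 glycolytic genes (7 higher, 5 lower) and 15 others (6 higher, 9 lower) were called, against 49.0% of all tested genes. The block added HK1, PFKFB4, GAPDH, PDK1, BNIP3L and KDM3A and changed no other call among the 39. Leaving out 1 library gave 8 to 12 glycolytic calls (4 to 8 higher, 4 lower in each fit), 9 to 14 calls among the others (3 to 6 higher, 6 to 8 lower) and 6268 to 8433 calls over all genes. The 8 higher glycolytic calls came without shMORC2 replicate 1, which also added PDK1 and EGLN3 among the others. The 3 higher calls among the others came on leaving out shCtrl replicate 2 or either of shMORC2 replicates 2 and 3, and limma on log2(RPKM + 1) also gave 3. Limma on this scale had no value for CA12, BNIP3 and EPAS1, whose mean RPKM is under 1, so CA12 could not count there. The cause of the other changes was not tested. With 1 library left out, signs turned only for genes that were not called: GPI (-0.023 to 0.15, below 0 without shMORC2 replicate 3), TPI1 (-0.0086 to 0.070, below 0 without shCtrl replicate 2 and without shMORC2 replicate 3), ENO1 (-0.0024 to 0.091, without shMORC2 replicate 3), SLC16A1 (-0.022 to 0.19, without shMORC2 replicate 1) and MXI1 (-0.0086 to 0.15, without shMORC2 replicate 2). As shares of counts not divided by length, the difference in share of PFKL was 0.50 in place of -0.08 percentage points and that of ALDOA 1.18 in place of 2.21. With other genes of the family added, a sum chosen after seeing the data, the difference in share was 11.1 in place of 5.74 for HK1, -7.65 in place of -9.06 for PFKFB3, -0.24 in place of -1.13 for ENO1 and -5.47 in place of -12.9 for PDK1. ADM, ANGPTL4, EPAS1 and BNIP3, at a few CPM in both groups, and CA12, at 3.14 CPM in shCtrl, are the members that depth limits most.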
